A study of Petunia x hybrida with 12 samples.

Results

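The genes described here are putative nucleotide-binding immune receptors of petunia. They were chosen by their annotation alone: a gene was included when its annotated GO terms were ADP binding and defense response, and no others. Of 32928 gene models, 105 met this rule. All 105 carried the InterPro entries for a P-loop nucleoside triphosphatase and for the disease resistance protein signature, whereas 0 carried the entry for the NB-ARC domain itself, so that the label NB-ARC rests on the GO terms and the descriptions. By description, 58 belonged to the CC-NBS-LRR class or family, 6 were called NB-ARC domain proteins, 30 were other resistance proteins or resistance gene analogs, and 11 fell outside these names, among them 4 homologs of tomato NRC1, 1 homolog of tomato Prf and 5 proteins without a known homolog. None of the 105 was described as a receptor of the TIR class, and 0 carried the TIR domain entry.

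Nucleotide-binding leucine-rich repeat receptors are intracellular proteins that detect pathogen effectors. In the resting state their NB-ARC module holds ADP, and exchange for ATP switches the receptor on and starts defense, often with local cell death. Their genes often lie in clusters of related copies and are known as one of the most variable gene families between plant lines. In Solanaceae, NRC proteins act as helpers that pass on the signal of several sensor receptors.

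RNA was sequenced from roots of Petunia hybrida in 12 libraries, 3 each from mycorrhizal *ram1* roots, non-mycorrhizal *ram1* control roots, mycorrhizal wild type roots and non-mycorrhizal wild type control roots. The mutant carries the allele ram1-2 of *RAM1*, a GRAS transcription factor gene required for arbuscule development, and the wild type is the line W115. Mycorrhizal plants were grown for 15 days with inoculum of the fungus Rhizophagus irregularis from nurse plants, and controls received none of it. The sources used here do not give the genetic background in which ram1-2 was kept, so effects of the mutation and of any other difference between the 2 lines cannot be told apart.

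The libraries held 7152267 to 13391147 counted reads, the lowest being *ram1* mycorrhizal replicate 2. *RAM1* itself had 6.07, 8.63 and 8.32 CPM (reads scaled to a common library size) in mycorrhizal *ram1* roots and at least 109 CPM in each mycorrhizal wild type library, and had at most 0.335 CPM in all control roots. The summed RPKM (reads scaled for transcript length and library size) of 7 symbiosis genes including *RAM1* was 9.39 to 19.6 in mycorrhizal *ram1* roots, 1.16 to 2.498 in *ram1* controls, 746 to 878 in mycorrhizal wild type roots and 3.99 to 18.7 in wild type controls. A list of 23 genes for Casparian strip membrane proteins and nitrate transporters, taken as root markers, summed to 209 to 277 RPKM in mycorrhizal *ram1* roots, 379 to 509 in *ram1* controls, 515.1 to 536 in mycorrhizal wild type roots and 534 to 945 in wild type controls, and 0 to 3 of its genes had no read in a group. A list of 45 genes for chlorophyll a-b binding proteins and the RuBisCO small chain summed to 79.0 to 90.9 RPKM in mycorrhizal *ram1* roots, 68.9 to 71.8 in *ram1* controls, 142 to 222 in mycorrhizal wild type roots and 76.8 to 103 in wild type controls, with 11 to 17 genes without a read in a group. In *ram1*, 2 libraries stood apart from their replicates. Between control replicate 3 and each of the remaining *ram1* controls the chi-square per degree of freedom over all genes was 38.4 and 45.9, against 15.7 between the remaining controls, and mycorrhizal replicate 1 differed from its replicates by 29.1 and 38.6, against 12.2. In the wild type, mycorrhizal replicate 3 differed from its replicates by 19.8 and 19.7, against 6.99 between the remaining libraries of that group. Without it 48 receptor genes passed between the lines in control roots, 55 between the lines in mycorrhizal roots, 4 in the response of the wild type, 11 in that of *ram1* and 9 in the difference between these responses, against 49, 59, 4, 13 and 10 with it. Results that rest on these libraries are given with and without them.

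Of the 105 receptor genes, 4 had no read in any library and 8 more had 1 to 10 reads over the 12 libraries. A mean of 10 reads in at least 1 of the 4 groups, the condition for a test, was reached by 82, and 76 were read in every library. The 23 genes not tested had shorter transcripts, with a median of 1404 bases against 2343 in the 82 tested genes, and none of them had more than 64 reads in all. Of the tested genes, 6 reached 10 reads in *ram1* groups alone and 9 in wild type groups alone. A gene that passed through 1 line alone had to differ between the lines, so counts over the 82 genes are a description of those genes. For no gene were all 6 libraries of a line without a read while the other line reached the 10 reads. In 29 of the 82 tested genes fewer than 90% of the reads matched that gene alone, and in 6 of them fewer than 10%, so that reads of near-identical copies may have been shared among these genes.

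As a group the receptor genes were weakly expressed. They took 0.290% to 0.328% of the counted reads in mycorrhizal *ram1* roots, 0.241% to 0.253% in *ram1* controls, 0.243% to 0.291% in mycorrhizal wild type roots and 0.229% to 0.275% in wild type controls. The mycorrhizal *ram1* libraries thus lay above all *ram1* controls and overlapped slightly with the wild type. In bulk roots, more cells of a type and more RNA per cell cannot be told apart. The median level of the tested genes was 3.67 RPKM over the 12 libraries, against 13.1 RPKM for all genes tested. Only 17 reached 10 RPKM and 10 stayed below 1 RPKM. Reads were concentrated on few genes, with 66.2% of all reads of the group on the 6 genes with most reads.

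The 6 genes with the highest level per length were all described as CC-NBS-LRR proteins. Peaxi162Scf00086g00079.1 led with 198 ± 22.8 RPKM in mycorrhizal *ram1* roots, 136 ± 3.70 in *ram1* controls, 281 ± 42.2 in mycorrhizal wild type roots and 241 ± 39.0 in wild type controls (SD, n = 3 each). Peaxi162Scf00380g00099.1 had 94.3 ± 9.60 RPKM in mycorrhizal *ram1* roots, 94.9 ± 7.79 in *ram1* controls, 141 ± 12.0 in mycorrhizal wild type roots and 142 ± 27.4 in wild type controls. Both passed the edgeR test as lower in *ram1*, with and without the fungus. Peaxi162Scf00014g02735.1 had 162.4 ± 14.8 RPKM in mycorrhizal *ram1* roots, 166 ± 27.0 in *ram1* controls, 64.1 ± 6.48 in mycorrhizal wild type roots and 49.8 ± 7.28 in wild type controls. Peaxi162Scf00034g00176.1 had 146 ± 23.4 RPKM in mycorrhizal *ram1* roots, 101.3 ± 4.09 in *ram1* controls, 51.3 ± 5.46 in mycorrhizal wild type roots and 44.6 ± 7.71 in wild type controls. Peaxi162Scf00382g00117.1 had 99.4 ± 10.2 RPKM in mycorrhizal *ram1* roots, 92.8 ± 4.09 in *ram1* controls, 47.1 ± 3.30 in mycorrhizal wild type roots and 49.1 ± 2.66 in wild type controls. These 3 genes passed as higher in *ram1* in both conditions. Of the reads of Peaxi162Scf00382g00117.1, 87.0% were unique. Peaxi162Scf00014g02735.1 had the highest mean of these 6 genes in *ram1* controls, while in wild type controls Peaxi162Scf00086g00079.1 and Peaxi162Scf00380g00099.1 lay above it. Peaxi162Scf00086g00081.1, on the same scaffold as the leading gene, had 40.5 ± 6.54 RPKM in mycorrhizal *ram1* roots, 35.4 ± 3.85 in *ram1* controls, 49.5 ± 9.83 in mycorrhizal wild type roots and 38.0 ± 3.27 in wild type controls, and neither line comparison passed the test for it. In *ram1* controls Peaxi162Scf00034g00176.1, Peaxi162Scf00380g00099.1 and Peaxi162Scf00382g00117.1 lay within 1 SD of the next in order, and the means ± SD of the leading pair, Peaxi162Scf00014g02735.1 and Peaxi162Scf00086g00079.1, met. In wild type controls the same held for Peaxi162Scf00014g02735.1, Peaxi162Scf00382g00117.1, Peaxi162Scf00034g00176.1 and Peaxi162Scf00086g00081.1, each set against the next.

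**Figure D1:**
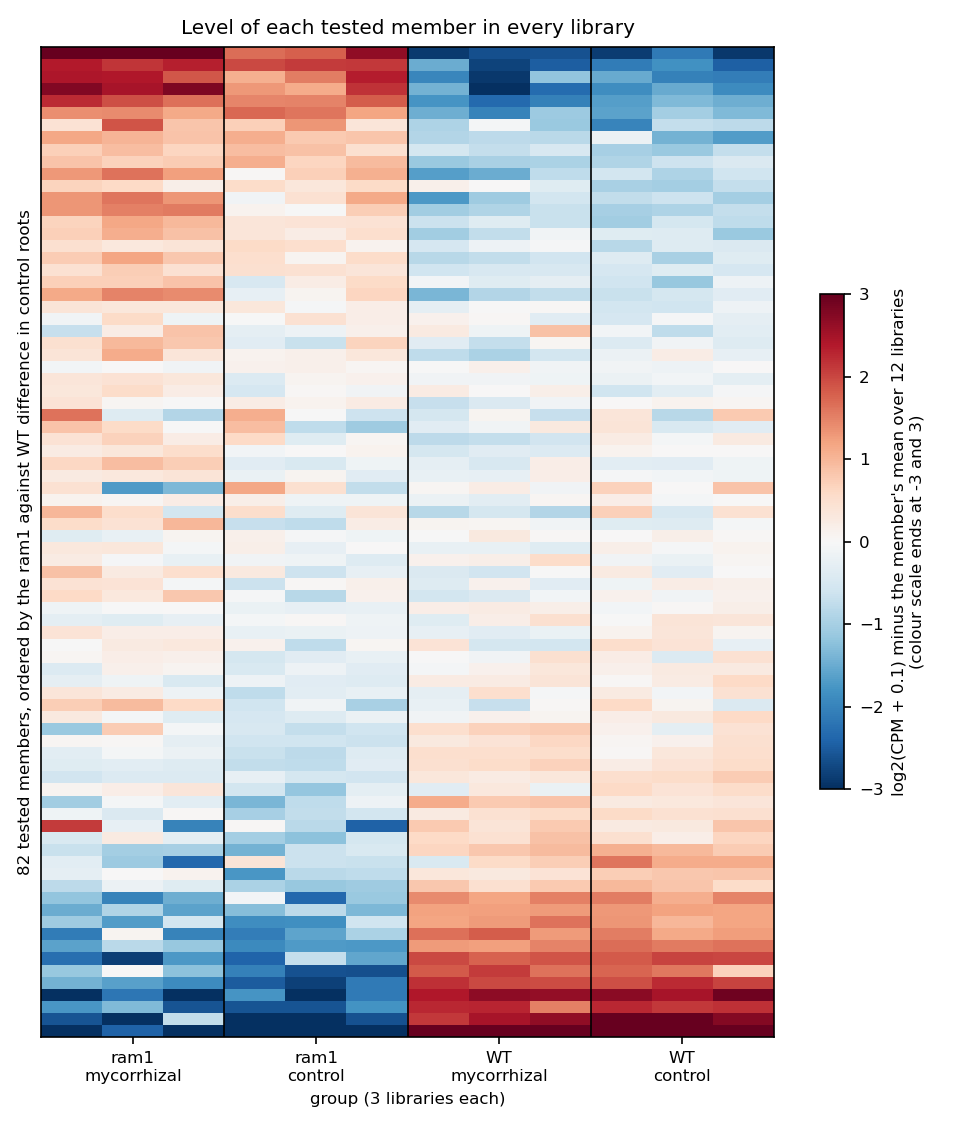
Level of the 82 tested receptor genes (rows) in the 12 libraries (columns, 3 per group), as log2(CPM + 0.1) minus the gene's mean over all libraries. The colour scale ends at -3 and 3. Rows are ordered by the fitted difference between *ram1* and wild type in control roots, and the 2 lines form the blocks of opposite colour at the top and the bottom.

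The comparison of *ram1* with the wild type in control roots asks how far the lines differed without the fungus. Reads of both lines were aligned to P. axillaris transcripts. Fewer transcripts in a line and reads of a line that did not align cannot be told apart in these counts. In control roots 49 of the 82 tested receptor genes differed between *ram1* and wild type in the edgeR test, which is 59.8% of them, against 36.3% of all genes tested. Of these, 21 were higher and 28 lower in *ram1* (18.8% and 17.5% of all genes), and in all 49 the 3 *ram1* values lay outside the range of the 3 wild type values, which held for 35.3% of all genes tested together with the call. A difference of at least 2-fold was found in 36 genes (43.9%, against 20.1% of all genes), and of at least 5-fold in 18 (22.0%, against 9.13%). The median log2 fold change of the 82 genes was -0.09 and that of all genes 0.02, while the median size of the fold change regardless of its sign was 0.93 and 0.40 on the log2 scale. Among the 78 genes with a mean of at least 10 reads over all 12 libraries, 46 differed (59.0%), against 35.6% of all genes with this mean. This mean can also be reached through 1 line alone, as in Peaxi162Scf00503g00515.1, so this count is likewise a description. Of the 53 genes with at least 90% unique reads, 27 differed, and of the 29 genes below this limit, 22. Leaving out any single library gave 45 to 51 genes, and leaving out both *ram1* libraries that stood apart gave 47. The first principal component of the 82 genes separated the lines and held 86.8% of their variance, against 58.2% for all genes. The 82 genes include those that reached 10 reads in the groups of 1 line alone.

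Among the genes higher in *ram1*, the largest difference was found for Peaxi162Scf00739g00123.1, a CC-NBS-LRR gene with 81.2% unique reads. It had 15.2, 16.5 and 30.2 CPM in *ram1* controls and 0.569, 1.01 and 0.548 CPM in wild type controls. Few reads were counted for it in the wild type, and the *ram1* values did not overlap with the wild type values (log2 fold change 4.85 ± 0.33 SE, edgeR adjusted p = 1.54e-06). Peaxi162Scf00451g00033.1, an NRC1 homolog with only unique reads, had 7.14, 7.70 and 7.79 CPM in *ram1* controls and 0.325, 0.419 and 0.235 CPM in wild type controls, a clear separation with narrow spread (log2 fold change 4.49 ± 0.30 SE, edgeR adjusted p = 1.32e-06). Peaxi162Scf03393g00017.1, annotated after the potato late blight resistance protein R1-A, had 26.8, 27.2 and 34.1 CPM in *ram1* controls and 3.01, 3.77 and 3.45 CPM in wild type controls (log2 fold change 3.10 ± 0.20 SE, edgeR adjusted p = 8.41e-07). Peaxi162Scf00014g02735.1 was the only one of these 10 genes with a high level in both lines, with 426, 412 and 312 CPM in *ram1* controls and 112, 102 and 136 CPM in wild type controls (log2 fold change 1.71 ± 0.15 SE, edgeR adjusted p = 1.03e-05). The other six of the 10 largest increases were Peaxi162Scf00003g04034.1, Peaxi162Scf00003g00479.1, Peaxi162Scf00003g04026.1, Peaxi162Scf24299g00001.1, Peaxi162Scf00157g01642.1 and Peaxi162Scf00157g01643.1, with log2 fold changes of 1.56 to 4.36. Of these, Peaxi162Scf24299g00001.1 had no unique read, at 1.07, 1.70 and 0.816 CPM in *ram1* controls and 0.0813, 0.335 and 0.313 CPM in wild type controls, and its edgeR adjusted p changed to 0.0512 without *ram1* control replicate 2.

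Among the genes lower in *ram1*, 3 had counts at or near 0 in the mutant. Peaxi162Scf00503g00515.1, a CC-NBS-LRR gene, had 0 reads in the 3 *ram1* controls and 25.7, 28.7 and 32.0 CPM in wild type controls, that is, 1066 reads. Set against 3 reads in all 3 libraries summed, the limit that a count of 0 allows, its count was at least 371-fold lower in *ram1* (edgeR adjusted p = 3.83e-07). Peaxi162Scf00042g01612.1, described as a late blight resistance protein, had 1 read in the *ram1* controls and 8.37, 9.47 and 7.05 CPM in wild type controls, 320-fold lower in *ram1* with an exact 95% counting interval of 56.9 to 12660 (edgeR adjusted p = 1.10e-05). Peaxi162Scf00264g00520.1, a CC-NBS-LRR gene, had 1 read in the *ram1* controls and 2.76, 2.51 and 2.66 CPM in wild type controls, 102-fold lower with an interval of 18.0 to 4084 (edgeR adjusted p = 2.73e-05). These intervals cover counting error only, and whether *ram1* carries copies that align to these transcripts was not tested. In all 3 genes the wild type controls held clearly more reads than the *ram1* controls. Of the reads of Peaxi162Scf00264g00520.1, 82.8% were unique.

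The remaining large decreases concerned genes that were still read in *ram1*. Peaxi162Scf00019g00095.1, an unknown protein, had 0.410, 0.0770 and 0.297 CPM in *ram1* controls and 11.2, 9.47 and 13.1 CPM in wild type controls (log2 fold change -5.39 ± 0.36 SE, edgeR adjusted p = 1.16e-06). Peaxi162Scf00003g00474.1 had 0.492, 0.385 and 0.668 CPM in *ram1* controls and 12.8, 15.7 and 13.7 CPM in wild type controls (log2 fold change -4.74 ± 0.21 SE, edgeR adjusted p = 8.70e-08), with 68.3% unique reads. Peaxi162Scf00380g00620.1 was the most abundant gene of this group in the wild type, with 5.09, 5.93 and 5.86 CPM in *ram1* controls and 62.4, 57.9 and 60.7 CPM in wild type controls (log2 fold change -3.42 ± 0.17 SE, edgeR adjusted p = 2.08e-07). In these 3 genes the wild type values lay far above all *ram1* values. Peaxi162Scf00064g10131.1, Peaxi162Scf00003g05030.1, Peaxi162Scf00264g00823.1 and Peaxi162Scf00595g00003.1 completed the 10 largest decreases, with log2 fold changes of -4.59 to -2.53. All 20 genes of both directions kept their direction in each alternative setting in which they were tested.

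**Figure D2:**
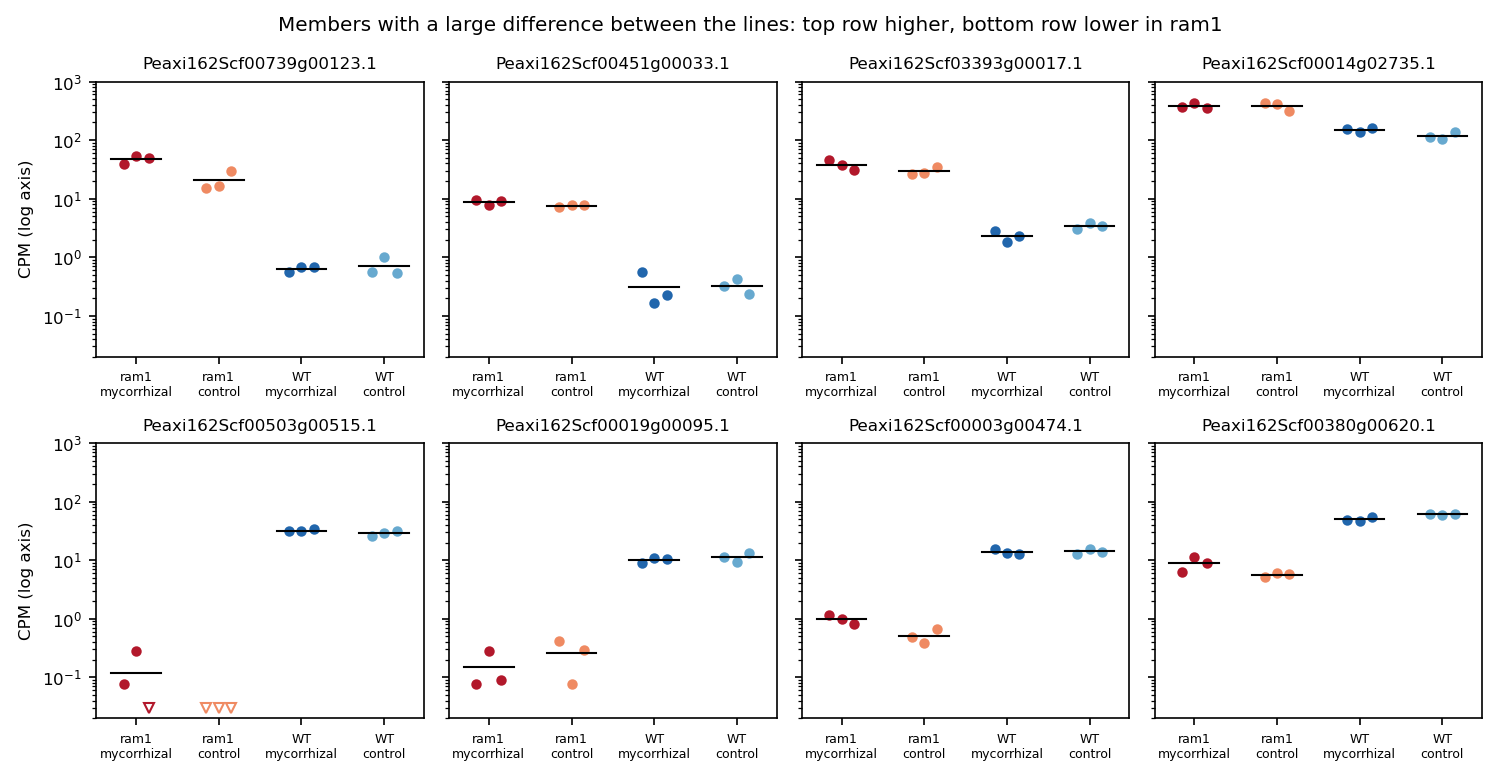
CPM (log axis) of 8 receptor genes with a large difference between the lines in each library of the 4 groups. Points are libraries, bars are means of 3, and open triangles at the bottom stand for libraries with 0 reads. The 4 genes of the upper row are higher in *ram1* in both conditions and those of the lower row lower, as in Peaxi162Scf00503g00515.1 with 0 reads in *ram1* controls and 25.7 to 32.0 CPM in wild type controls.

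The difference between lines was not uniform among related genes. Of the 4 NRC1 homologs, Peaxi162Scf00451g00033.1 was higher in *ram1*. Peaxi162Scf01572g00009.1 and Peaxi162Scf01501g00014.1 were lower, with log2 fold changes of -1.27 and -0.997, and had 50.8% and 56.1% unique reads. Peaxi162Scf00364g00025.1 had 31.5, 19.7 and 8.385 CPM in *ram1* controls and 22.6, 14.2 and 25.5 CPM in wild type controls. With this wide spread it did not pass (log2 fold change -0.06 ± 0.54 SE), which does not show that it was unchanged. The NRC1 homologs thus held genes that passed in both directions and 1 that did not pass. All 4 genes with the UniProt match DRL27, an Arabidopsis resistance protein, were lower in *ram1*, with log2 fold changes of -3.47 to -1.74. Of the 4 genes matched best by the Arabidopsis gene AT5G48620.1, 3 were lower in *ram1*, and the fourth, Peaxi162Scf01542g00011.1, had the same length as Peaxi162Scf01562g00004.1 and, like it, no unique read. Of the 14 tested genes matched best by AT5G35450.1, 2 were higher, 2 lower, and 10 did not pass. Of the 8 matched best by AT1G53350.1, 3 were higher and 4 lower. Among the description classes, 26 of 45 tested CC-NBS-LRR genes passed (57.8%), 3 of 5 genes described by their NB-ARC domain, 13 of 22 other resistance proteins (59.1%) and 7 of the other 10. The matches of these groups were chosen for display after their values had been seen.

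Petunia receptor genes also lay together on scaffolds of the genome assembly. The 105 genes were spread over 69 scaffolds, of which 16 held more than 1 of them and 52 genes in all. On 6 scaffolds at least 2 genes passed in control roots, in 5 of these with a single direction and in 1 with both. Scaffold Scf00003, with 8 tested genes, was the one with both directions: 4 were higher in *ram1*, 3 lower, and Peaxi162Scf00003g00473.1 did not pass (log2 fold change -0.08). Peaxi162Scf00003g00479.1 and Peaxi162Scf00003g00474.1, close in gene number, went in opposite directions. Peaxi162Scf00003g00479.1 had 2.96, 2.62 and 5.49 CPM in *ram1* controls and 0.244, 0.335 and 0.235 CPM in wild type controls (log2 fold change 3.72 ± 0.51 SE, edgeR adjusted p = 0.000215). The genes of this scaffold had 66.99% to 81.1% unique reads, so that part of their reads was shared with other copies. Of the 6 tested genes of scaffold Scf00157, 3 were higher in *ram1* and none lower, among them a homolog of the tospovirus resistance protein with 26.1% unique reads. Scf00380 held 3 genes, all lower in *ram1* (log2 fold changes of -3.42 to -0.61). Genes of 1 scaffold are not independent replicates of one another.

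In mycorrhizal roots, sampled as other libraries, the comparison of *ram1* with the wild type gave 59 of the 82 tested receptor genes (72.0%), against 52.7% of all genes. Of these, 36 were higher and 23 lower in *ram1* (26.7% and 25.9% of all genes), with 39 at least 2-fold different (29.2% of all genes). At least 5-fold, 10 were higher and 12 lower (6.77% and 6.25% of all genes). The groups did not overlap in 58 of the 59 genes, and 50.8% of all genes passed without overlap. The 2 line comparisons share no library, and 45 genes passed in both, 44 of them in the same direction, which is 91.8% of the genes found in control roots and 76.3% of those found in mycorrhizal roots. For all genes these shares were 75.2% and 51.8%, and 6003 of the 6269 genes that passed in both had the same direction. Pearson's r between the 2 sets of fold changes was 0.95 across the 82 genes and 0.80 across all genes. All 18 receptor genes with an at least 5-fold difference in control roots also had one of the same sign in mycorrhizal roots. Among all genes this held for 1651 of 2096. The exception in direction was Peaxi162Scf00392g00230.1, described with the response to the fungus. A further 14 genes passed in mycorrhizal roots alone (17.1%), all of them higher in *ram1*. Of all genes 25.4% passed in mycorrhizal roots alone, 12.8% higher and 12.6% lower. In control roots alone 4 receptor genes passed (4.88%, against 9.0% of all genes). Without both *ram1* libraries that stood apart, 57 genes passed in mycorrhizal roots. Of the 82 genes, 6 reached 10 reads in *ram1* groups alone and 9 in wild type groups alone, so these had to differ between the lines. The counts, shares and r of this comparison are therefore also a description of the 82 genes.

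The largest increases in mycorrhizal roots were those of Peaxi162Scf00739g00123.1, Peaxi162Scf00003g00479.1 and Peaxi162Scf00003g04034.1. Peaxi162Scf00739g00123.1 had 39.6, 53.2 and 49.1 CPM in mycorrhizal *ram1* roots and 0.553, 0.671 and 0.687 CPM in mycorrhizal wild type roots (log2 fold change 6.18 ± 0.34 SE, edgeR adjusted p = 2.51e-07). Peaxi162Scf00003g00479.1 had 8.48, 6.79 and 8.59 CPM in mycorrhizal *ram1* roots, against 0.369, 0 and 0.153 CPM in mycorrhizal wild type roots. Peaxi162Scf00003g04034.1, a fragment of 264 bases, had 3.89, 3.82 and 2.62 CPM in mycorrhizal *ram1* roots, against 0.0922, 0 and 0.229 CPM in mycorrhizal wild type roots. All 3 were near the detection limit in the wild type. The largest decreases were those of Peaxi162Scf00503g00515.1, Peaxi162Scf00019g00095.1 and Peaxi162Scf00264g00520.1. Peaxi162Scf00503g00515.1 had 3 reads in mycorrhizal *ram1* roots and 31.0, 31.4 and 33.4 CPM in mycorrhizal wild type roots, 331-fold lower in *ram1* with a counting interval of 113 to 1606. Peaxi162Scf00264g00520.1 had 2 reads in mycorrhizal *ram1* roots and 2.77, 2.85 and 1.60 CPM in mycorrhizal wild type roots, 36.7-fold lower with an interval of 9.85 to 308. Peaxi162Scf00019g00095.1 had 0.0778, 0.283 and 0.0905 CPM in mycorrhizal *ram1* roots, against 9.13, 11.1 and 10.6 CPM in mycorrhizal wild type roots. The counts of the 3 genes thus stayed close to 0 in *ram1* with and without the fungus.

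**Figure D3:**
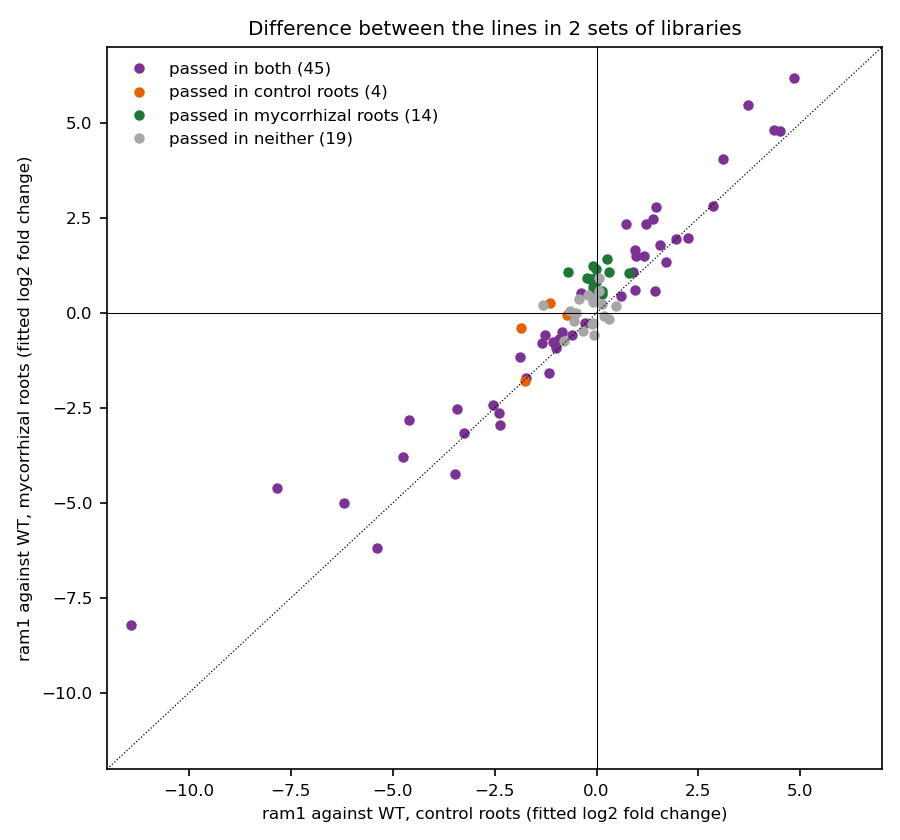
Fitted log2 fold change of *ram1* against wild type for the 82 tested receptor genes in control roots (x axis) and in mycorrhizal roots (y axis), which share no library. The dotted line marks equal values. Of the genes, 45 passed in both comparisons, 4 in control roots alone, 14 in mycorrhizal roots alone and 19 in neither. The gene with the largest difference, Peaxi162Scf00503g00515.1, lies off the dotted line, at -11.4 in control roots and -8.21 in mycorrhizal roots.

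The comparison of mycorrhizal with control roots addresses the response to the fungus. In the wild type, 4 of the 82 receptor genes passed (4.88%), against 21.7% of all genes, and 0 of them changed at least 2-fold, against 9.66% of all genes. In the edgeR test 1 gene was higher and 3 were lower in mycorrhizal roots (12.6% and 9.14% of all genes), and the median log2 fold change of the 82 genes was -0.07. Peaxi162Scf00304g01122.1, described as a late blight resistance protein, had 2.77, 2.52 and 1.91 CPM in mycorrhizal wild type roots, against 1.22, 1.17 and 1.49 CPM in wild type controls (log2 fold change 0.88 ± 0.24 SE, edgeR adjusted p = 0.0215). Peaxi162Scf00392g00230.1, a CC-NBS-LRR gene, had 15.6, 14.4 and 16.1 CPM in mycorrhizal wild type roots, against 19.9, 23.7 and 19.4 CPM in wild type controls (log2 fold change -0.45 ± 0.11 SE, edgeR adjusted p = 0.0127). The groups did not overlap in any of the 4 genes, which held together with the call for 21.4% of all genes. Peaxi162Scf00071g00945.1, a homolog of potato R3a, a receptor for an effector of the late blight pathogen, had 8.02, 9.05 and 8.70 CPM in mycorrhizal wild type roots, against 12.4, 11.6 and 11.7 CPM in wild type controls (log2 fold change -0.46 ± 0.12 SE, edgeR adjusted p = 0.0144). Peaxi162Scf00045g01832.1, a homolog of Prf, which acts with the kinase Pto in tomato, had 1.84, 1.93 and 2.14 CPM in mycorrhizal wild type roots, against 3.82, 3.10 and 3.92 CPM in wild type controls (log2 fold change -0.87 ± 0.26 SE, edgeR adjusted p = 0.0353). Only the call of Peaxi162Scf00071g00945.1 held when any single library was left out. That of Peaxi162Scf00392g00230.1 was lost without wild type mycorrhizal replicate 2 or wild type control replicate 2 (edgeR adjusted p = 0.0559 and 0.0561). That of Peaxi162Scf00304g01122.1 was lost without replicate 1 or 2 of either wild type group (0.0673 to 0.0880), and that of Peaxi162Scf00045g01832.1 without any mycorrhizal wild type library or control replicate 1 or 3 (0.0707 to 0.0995). Without wild type mycorrhizal replicate 2, wild type control replicate 1 or wild type control replicate 2, the number of genes that passed was 2 in each case.

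In *ram1*, 13 of the 82 genes passed (15.9%), against 10.1% of all genes. All 13 were higher in mycorrhizal roots, a direction in which 4.91% of all genes passed, and 7 of them were at least 2-fold higher (2.22% of all genes). The groups did not overlap in any of the 13 (9.76% of all genes). The median log2 fold change was 0.38 for the 82 genes and 0.05 for all genes, with 65 positive and 17 negative values among the 82 genes. The 13 genes comprised 11 CC-NBS-LRR genes, 1 gene described by its NB-ARC domain and 1 NRC1 homolog, and 6 of them had at least 90% unique reads. Peaxi162Scf00007g00431.1 had 30.0, 34.4 and 35.5 CPM in mycorrhizal *ram1* roots and 12.9, 11.9 and 20.2 CPM in *ram1* controls (log2 fold change 1.15 ± 0.19 SE, edgeR adjusted p = 0.00729). Peaxi162Scf00130g01329.1, with only unique reads, had 9.96, 12.5 and 10.9 CPM in mycorrhizal *ram1* roots and 5.09, 4.70 and 5.94 CPM in *ram1* controls (log2 fold change 1.07 ± 0.19 SE, edgeR adjusted p = 0.00971). Peaxi162Scf00003g04738.1 had 35.2, 45.3 and 43.1 CPM in mycorrhizal *ram1* roots and 13.5, 17.1 and 24.9 CPM in *ram1* controls (log2 fold change 1.15 ± 0.22 SE, edgeR adjusted p = 0.0146). In all 3 genes the highest control value was that of replicate 3. Peaxi162Scf00739g00123.1 was also higher in mycorrhizal *ram1* roots (log2 fold change 1.19 ± 0.24 SE, edgeR adjusted p = 0.0178), as was Peaxi162Scf00003g04724.1 with 14.2, 17.4 and 18.6 CPM in mycorrhizal *ram1* roots and 5.09, 9.71 and 10.2 CPM in *ram1* controls (log2 fold change 1.00 ± 0.21 SE, edgeR adjusted p = 0.0204).

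The number of genes that passed in *ram1* depended on the libraries. Without *ram1* mycorrhizal replicate 2 or 3 it was 3 or 2, without *ram1* control replicate 1 or 2 it was 4 or 3, and without wild type mycorrhizal replicate 1 or 2 or wild type control replicate 2, which enter through the common estimate of spread, it was 6, 7 and 6. Without both *ram1* libraries that stood apart, *ram1* control replicate 3 and *ram1* mycorrhizal replicate 1, 21 genes passed, 20 of them higher and 1 lower, a setting added after the data had been seen. With the 6 *ram1* libraries alone 1 gene passed, and with unique reads alone 8. The share of all genes that passed moved with these counts. It was 2.50% and 2.45% without *ram1* mycorrhizal replicate 2 or 3, where 3.61% and 2.44% of the receptor genes passed, and 2.60% and 3.05% without *ram1* control replicate 1 or 2, where 4.88% and 3.66% did. Without both *ram1* libraries that stood apart the shares were 25.3% of the receptor genes and 24.8% of all genes, with unique reads 10.3% and 10.0%, and with the *ram1* libraries alone 1.37% and 1.88%. In several settings the receptor genes thus passed at about the share of all genes. Of the 5 genes named, 3 lost the call in at least 1 of the settings that leave out a library: Peaxi162Scf00003g04738.1 without *ram1* mycorrhizal replicate 2 or 3 or *ram1* control replicate 2 (edgeR adjusted p = 0.0552 to 0.0571), Peaxi162Scf00739g00123.1 without *ram1* mycorrhizal replicate 2 or 3 or *ram1* control replicate 1 or 2 (0.0643 to 0.0670), and Peaxi162Scf00003g04724.1 without *ram1* mycorrhizal replicate 2 or 3 (0.0662 and 0.0841). The median of the tested genes stayed between 0.35 and 0.51 on the log2 scale in all settings that leave out a library. The root marker sum, by contrast, was lower in mycorrhizal than in control *ram1* roots, as given above, and its part in these differences was not tested.

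**Figure D4:**
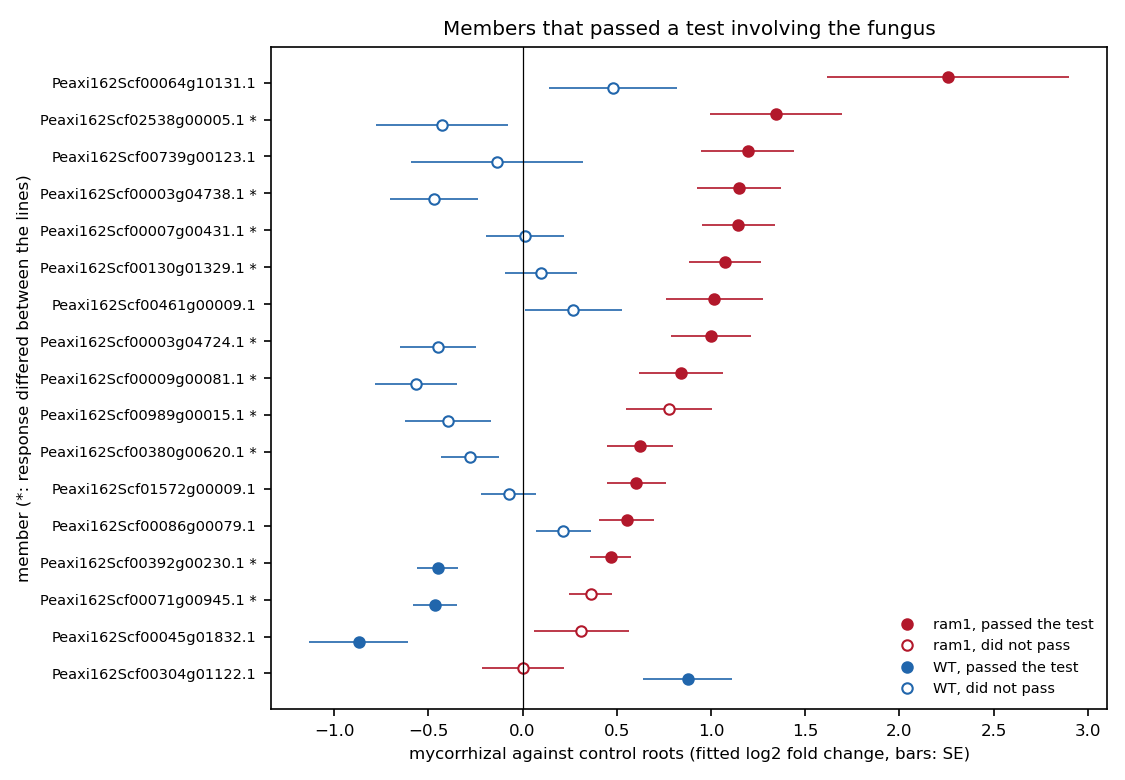
Fitted log2 fold change of mycorrhizal against control roots, with SE, in *ram1* (red) and in the wild type (blue) for the 17 receptor genes that passed in either line or in the test of the difference between lines. Filled points passed the test, and asterisks mark the 10 genes whose response differed between the lines. Of the 17 genes, 13 passed in *ram1*, all higher, and 4 in the wild type, of which 3 were lower.

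Whether the lines responded differently was tested as an interaction in the same model. The difference passed for 10 of the 82 genes (12.2%), against 9.19% of all genes, and all 10 had the larger value in *ram1*, a direction in which 4.03% of all genes passed. The median difference in response was 0.46 on the log2 scale for the 82 genes and 0.01 for all genes. The smallest p belonged to Peaxi162Scf00392g00230.1, with 24.4, 21.1 and 21.0 CPM in mycorrhizal *ram1* roots, 15.7, 15.9 and 16.6 CPM in *ram1* controls and the wild type values given above (difference 0.92 ± 0.15 SE, edgeR adjusted p = 0.00512). This gene was raised in *ram1* and lowered in the wild type, and it accordingly lay below the wild type in *ram1* controls (log2 fold change -0.39) and above it in mycorrhizal *ram1* roots (0.53). Peaxi162Scf00071g00945.1, the R3a homolog, had 13.7, 14.6 and 16.8 CPM in mycorrhizal *ram1* roots and 10.9, 11.7 and 12.5 CPM in *ram1* controls (difference 0.83 ± 0.16 SE, edgeR adjusted p = 0.0105). Peaxi162Scf00003g04738.1, Peaxi162Scf00003g04724.1 and Peaxi162Scf00009g00081.1 had differences of 1.62, 1.45 and 1.41. In Peaxi162Scf00009g00081.1 the values were 13.5, 14.4 and 16.2 CPM in mycorrhizal *ram1* roots, 8.62, 5.62 and 10.3 CPM in *ram1* controls, 9.95, 15.8 and 11.1 CPM in mycorrhizal wild type roots, against 19.0, 16.9 and 18.6 CPM in wild type controls. The 2 lines thus had opposite fitted directions in this gene, although the change in the wild type alone did not pass (log2 fold change -0.57, edgeR adjusted p = 0.0894). These 5 genes kept the call in all settings tried. The count itself varied: without a single library it was 5 to 16, with 5 genes when *ram1* mycorrhizal replicate 2, wild type mycorrhizal replicate 1 or 2 or wild type control replicate 2 was left out, 6 without *ram1* mycorrhizal replicate 3, *ram1* control replicate 2 or wild type control replicate 1 or 3, and 16 without *ram1* control replicate 3. The shares ran close to those of all genes in part of these settings, with 6.02% of the receptor genes and 6.30% of all genes without *ram1* mycorrhizal replicate 2, 6.02% and 5.80% without wild type mycorrhizal replicate 1, 6.10% and 6.58% without wild type control replicate 2, and 19.5% and 14.4% without *ram1* control replicate 3. Without both *ram1* libraries that stood apart it was 18, 17 of them with the larger value in *ram1*. The interaction shares its control libraries with the comparisons within each line and between the lines, so it is not a further set of data.

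Other genes of the same pathway were set beside the receptor genes. The tables held 107 further genes with an NB-ARC domain or an ADP binding term together with other terms, 75 of them tested. Of these, 41 differed between the lines in control roots (54.7%, against 36.3% of all genes), 21 higher and 20 lower in *ram1*. In *ram1*, 6 passed with the fungus, all of them higher (8.00%, against 10.1% of all genes in either direction and 4.91% higher). In the wild type 5 were higher and 2 lower with the fungus (9.33%, against 21.7%). The response differed between the lines in 8 of these 75 genes (10.7%, against 9.19% of all genes). Of the 8, 7 had the larger value in *ram1*, so this direction was not particular to the receptor genes. Leucine-rich repeat receptor-like kinases, which sense ligands at the cell surface, differed in 46 of 111 tested genes in control roots (41.4%, against 36.3% of all genes), with 34 higher and 12 lower in *ram1*. In mycorrhizal wild type roots 25 of these kinases passed (22.5%, against 21.7% of all genes), 15 higher and 10 lower. Differences between these lists and the receptor genes were not tested.

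Among partners of receptor signalling, of 23 genes for EDS1, SAG101, NDR1, RIN4, SGT1, RAR1 and HSP90, 19 were tested and 4 passed in control roots (21.1%, against 36.3% of all genes). Peaxi162Scf00689g00421.1, a homolog of EDS1, the lipase-like protein that relays signals mainly from TIR receptors, averaged 45.6 CPM in *ram1* controls and 69.8 CPM in wild type controls (log2 fold change -0.62 ± 0.14 SE, edgeR adjusted p = 0.00556). Peaxi162Scf00006g00317.1, of the RIN4 family, whose Arabidopsis member is guarded by such receptors, averaged 42.8 CPM in *ram1* controls and 56.4 CPM in wild type controls (log2 fold change -0.40 ± 0.09 SE, edgeR adjusted p = 0.00571). In mycorrhizal roots neither difference passed, with log2 fold changes of -0.04 and -0.12. The HSP90 genes Peaxi162Scf00553g00114.1 and Peaxi162Scf00553g00086.1, which encode a chaperone that stabilizes receptors, were higher in *ram1* controls, with log2 fold changes of 0.40 and 0.33 (edgeR adjusted p = 0.0240 and 0.0470). In mycorrhizal roots Peaxi162Scf00553g00086.1 was lower in *ram1*, with an average of 262 CPM in *ram1* and 508 CPM in the wild type (log2 fold change -0.95 ± 0.12 SE, edgeR adjusted p = 7.20e-05), and Peaxi162Scf00553g00114.1 did not pass (-0.14). Both were higher in mycorrhizal than in control roots of the wild type, with log2 fold changes of 1.52 and 0.86. Of the 19 genes, 6 passed between the lines in mycorrhizal roots (31.6%, against 52.7% of all genes), 4 higher and 2 lower in *ram1*. Higher were the HSP90 genes Peaxi162Scf00232g00030.1 and Peaxi162Scf00006g00535.1 (log2 fold changes of 1.75 and 0.54) and the RIN4 homologs Peaxi162Scf00238g00037.1 and Peaxi162Scf00517g00623.1 (1.35 and 0.79). The RIN4 homolog Peaxi162Scf00558g00012.1 was lower (-2.33), but in both lines it was higher in mycorrhizal than in control roots. Its log2 fold changes with the fungus were 5.90 in the wild type and 4.82 in *ram1* (edgeR adjusted p = 4.85e-06 and 0.000546). The difference between these responses did not pass. In the wild type 6 of the 19 genes passed with the fungus (31.6%, against 21.7% of all genes), 3 higher and 3 lower, the latter including Peaxi162Scf00238g00037.1 (-1.30). A search for HSP90 also found 5 genes of a wider ATPase family, which are not HSP90 and were left out of these counts. Of 57 tested genes for salicylic acid metabolism and pathogenesis-related proteins, 20 passed in control roots (35.1%), 11 higher and 9 lower in *ram1*. All genes passed at 36.3% there. In mycorrhizal roots 37 of the 57 passed between the lines (64.9%, against 52.7% of all genes), 18 higher and 19 lower in *ram1*. Of these 37, 31 differed at least 2-fold (54.4% of the 57, against 29.2% of all genes). With the fungus 18 passed in the wild type (31.6%, against 21.7% of all genes). Of these 18, 14 were higher, all at least 2-fold, and 4 lower. In *ram1* 9 passed with the fungus (15.8%, against 10.1% of all genes), 6 higher and 3 lower.

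**Figure D5:**
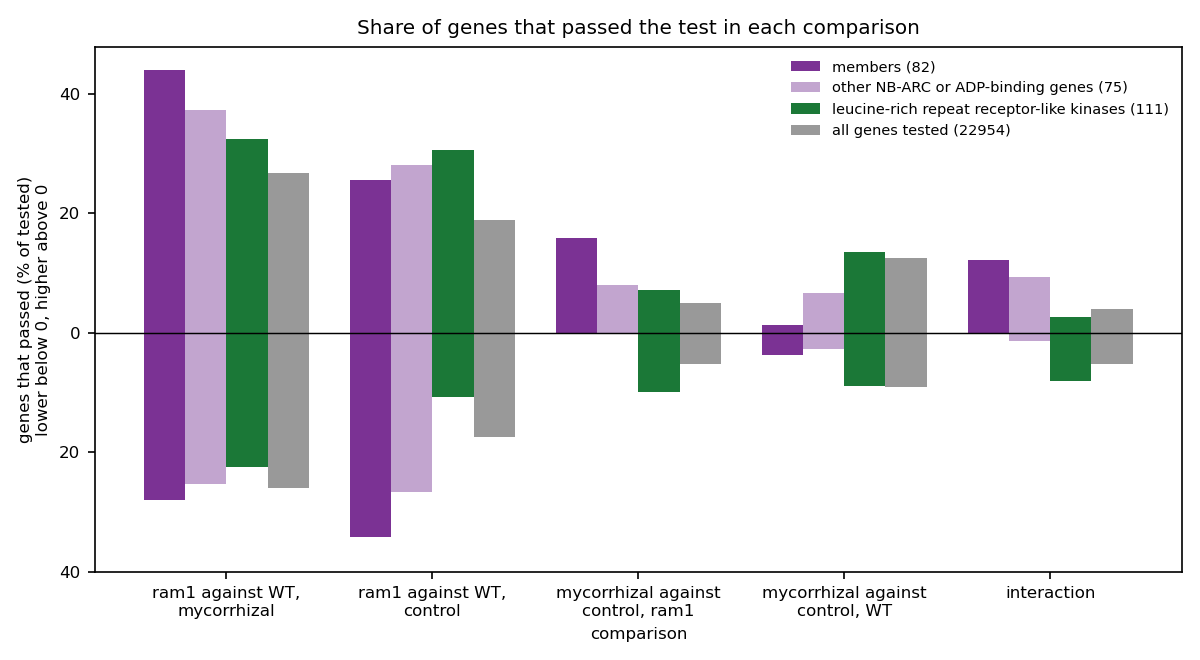
Share of tested genes that passed in each of the 5 comparisons, with genes higher in the first-named group above 0 and lower ones below 0, for the receptor genes (82 tested), other NB-ARC or ADP-binding genes (75), leucine-rich repeat receptor-like kinases (111) and all genes (22954). For the interaction, higher means a larger response in *ram1*. The receptor genes reach 25.6% and 34.2% in the line comparison in control roots and 1.22% and 3.66% in the response of the wild type to the fungus.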

How the data were processed

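RNA from 12 root libraries was used, 3 per group. The deposited counts, total and unique gene reads, were made by the authors in the CLC Genomics Workbench from read pairs aligned to P. axillaris transcripts. Both mates of a properly aligned pair were counted (2), and 1 where only a single mate aligned, and reads with several best matches could be shared among copies. The RPKM were computed by the authors in the same program. The tables also hold the results of Baggerly's test as a fold change and a p-value, which were not used. The GO term and description columns selected the genes. Replicates are separate plants according to the methods.

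Genes with a mean of at least 10 counts in at least 1 group (22954) were fitted with edgeR 4.0.16 in R 4.3.3, in 1 quasi-likelihood model of the 4 groups on TMM-scaled total reads, with Benjamini-Hochberg adjustment over all genes of a comparison and a threshold of 0.05. The SE is the size of the log2 fold change divided by the root of F. CPM use the TMM factors. Fold thresholds were applied to the fitted fold change. Where a group had 0 reads, a floor of 3 reads over the group was used, and with 1 to 3 reads an exact 95% interval. Levels between genes are compared as RPKM. Membership followed the annotation alone, but this family of genes and the lists were chosen with earlier results of these data known. Named are, among genes that passed without overlap of replicates, the 10 largest changes in each direction between the lines in control roots and the 3 largest in mycorrhizal roots, for the other comparisons up to 5 in each direction by p, the 6 highest by RPKM, genes of scaffolds with several members as examples, and partners that passed between the lines in control or mycorrhizal roots. Alternatives were DESeq2 1.42.0, its size factors, library totals, filterByExpr, no filter, unique reads, robust dispersion, a replicate block, the libraries of a comparison alone and each library left out. No sequence is given, as no genome was used here.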

Additional observations from a re-analysis of the deposited data

Results flagged for a closer look

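The response to the fungus differed between the lines for 10 of the 82 tested receptor genes in the edgeR interaction test (12.2%, against 9.19% of all genes). Each had the larger value in *ram1*, a direction in which 4.03% of all genes passed. The difference, response in *ram1* minus response in the wild type on the log2 scale, was 0.92 for Peaxi162Scf00392g00230.1, 0.83 for Peaxi162Scf00071g00945.1, 1.62 for Peaxi162Scf00003g04738.1, 1.45 for Peaxi162Scf00003g04724.1 and 1.41 for Peaxi162Scf00009g00081.1. It was 1.13 for Peaxi162Scf00007g00431.1, 0.90 for Peaxi162Scf00380g00620.1, 0.98 for Peaxi162Scf00130g01329.1, 1.17 for Peaxi162Scf00989g00015.1 and 1.77 for Peaxi162Scf02538g00005.1. The last gene and Peaxi162Scf00989g00015.1 had 0.472% and 6.06% unique reads, so that their values may belong to other copies. The 5 genes listed first kept the call in all settings tried. Without *ram1* mycorrhizal replicate 2 they alone kept it. The share that passed was then 6.02% of the receptor genes and 6.30% of all genes.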

How the results depend on the processing

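The number of receptor genes that passed between the lines was 45 to 51 in control roots and 50 to 59 in mycorrhizal roots in all settings without a fold limit. Requiring at least 2-fold left 36 and 39, and at least 5-fold 18 and 22. In mycorrhizal against control roots the number was 2 to 6 in the wild type and 2 to 17 in *ram1* without single libraries. In *ram1* it was 8 with unique reads, 1 with the libraries of the comparison alone and 21 without the 2 *ram1* libraries that stood apart, a setting added after the data were seen. For the interaction it was 5 to 16 without single libraries and 18 without those 2. Over all genes, the *ram1* comparison gave 3688 with DESeq2, 408 with its libraries alone, 561 to 3914 without single libraries and 5690 without the 2, and the interaction 3251 with DESeq2, 1251 to 3302 without single libraries and 4238 without the 2. A replicate block gave 50 genes between the lines in control roots, 12 in *ram1* and 4 in the wild type, where Peaxi162Scf00045g01832.1 lost its call (edgeR adjusted p = 0.0538). Replicate numbers were not treated as pairs, since correlations of same-numbered deviations ran between -0.23 and 0.36. Of 40 named results, 32 kept their call in every setting tested and 0 reversed. At this depth 23 of the 105 genes had too few reads for a test. The interaction could not be fitted with the libraries of 1 comparison alone.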
